A study of Homo sapiens with 9 samples.

Results

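The quinone, epoxide and alkenal detoxifying enzymes are a list of 10 human genes whose mRNA was followed in HepG2 cells with and without a guide RNA against KEAP1: NQO1, NQO2, CBR1, CBR3, CBR4, PTGR1, EPHX1, EPHX2, UGDH and ADH5. The members were found by matching the Entrez gene numbers of the count table to RefSeq symbols. In all, 9 of the 10 were in the table among 11746 numbered features, and all 9 were among the 11064 features tested. CBR3 was not in the table used and is not analysed here.

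HepG2 is an established liver cancer cell line that keeps many traits of hepatocytes. All cells carried the lentiCRISPRv2 vector, which brings Cas9 and a guide RNA, and were selected with puromycin. The groups were sgCtrl (the guide sgAAVS168, which targets the AAVS1 safe harbor site, so that control cells were cut as well), sgKeap1-1 and sgKeap1-2 (guide sequence 1 or 2 against KEAP1). Each group had 3 libraries, from RNA taken 48 h after seeding. The methods describe selected populations and name no clones, and the labels do not say whether libraries of a group came from separate cultures, so p-values measure the spread between these libraries, which may be technical.

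The target sites are shown because they say what separates the groups. Each matched the GRCh37 genome once. The KEAP1 guide 1 site lies in exon 3 of KEAP1 at chr19:10602372-10602391 on the minus strand and the guide 2 site in exon 2 at chr19:10610500-10610519 on the minus strand. The AAVS1 site lies outside the exons of PPP1R12C, within that gene, at chr19:55627855-55627873 on the plus strand. Capitals mark the adjacent NGG motif that Cas9 needs, read from the genome.
KEAP1 guide 1: acaaccccatgaccaatcagTGG
KEAP1 guide 2: ttggcatcatgaacgagctgCGG
AAVS1 guide: ccagccgtagaggtgacccAGG

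KEAP1 is the adaptor that presents the transcription factor NRF2 to a ubiquitin ligase, so that NRF2 is degraded in unstressed cells. Oxidants and electrophiles modify KEAP1, NRF2 then accumulates, and it binds antioxidant response elements in genes for detoxification. The enzymes described here deal with reactive quinones, carbonyls, epoxides and alkenals that arise from drugs, lipid peroxidation and normal metabolism, and NQO1 is a widely used readout of NRF2 activity. The liver carries out much of this chemistry.

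The libraries held 3051755 to 4793757 counted reads (median 3809616), made by the QuantSeq method, which reads each transcript next to its poly(A) tail, so that levels of different genes can be compared without a correction for length. Values below are CPM, read counts scaled to a common library size with TMM factors, given as mean ± SD over 3 libraries. Libraries of the same group differed more than by sampling noise (chi-square per degree of freedom 4.63 to 24.1), and the pair that differed most was sgKeap1-2 replicates 2 and 3. KEAP1 (Entrez 9817) was at 79.3 ± 13.9 CPM in sgCtrl, 60.0 ± 5.77 with sgKeap1-1 and 80.5 ± 5.98 with sgKeap1-2. Against sgCtrl it had a log2 difference of -0.40 with sgKeap1-1 (adjusted p = 0.211) and of 0.02 with sgKeap1-2 (adjusted p = 0.952), so neither KEAP1 guide group passed the test against sgCtrl. The libraries of the guides did not overlap, with a log2 difference of 0.42 between sgKeap1-2 and sgKeap1-1 (95% interval 0.10 to 0.75, adjusted p = 0.900). The mRNA level does not show small insertions or deletions. Hepatocyte markers were present (8 of 8 in the table, ALB at a mean of 13657 CPM in sgCtrl), while 6 of 10 markers of blood, endothelium, stroma and bile duct were not in the table, PTPRC, CD3E, PECAM1 and VWF among them. The 4 in the table were LYZ, at a mean of 1239 CPM in sgCtrl (the 99.2nd percentile), KRT19 at 231 CPM, ACTA2 at 53.8 CPM and COL1A1 at 2.62 CPM.

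With each KEAP1 guide, the mRNAs of NQO1, PTGR1, CBR1, EPHX1 and UGDH rose and that of ADH5 fell, while NQO2, CBR4 and EPHX2 did not pass the test. Thus 6 of 9 members passed an adjusted p of 0.05 with sgKeap1-1, against 4.2% of all features tested (5 higher, against 2.8%, and 1 lower, against 1.4%). With sgKeap1-2, 6 of 9 passed, against 10.8% of all features (5 higher, against 5.96%, and 1 lower, against 4.85%). Passing with both guides and higher were 5 members (2.77% of all features), and 1 was lower with both (1.37% of all features). The median log2 fold change over the 9 members was 0.43 with sgKeap1-1 and 0.71 with sgKeap1-2, and that over all features was -0.00062 and -0.014. The same sgCtrl libraries served both contrasts, so these are not independent of each other. The members were chosen with earlier results of these data known, so these counts are no independent support. All tests were edgeR's quasi-likelihood test in 1 fit of the 9 libraries, with Benjamini-Hochberg adjustment over all features tested. The number with sgKeap1-1 dropped to 3 to 5 in 8 of the 9 fits that leave out 1 library and stayed at 6 only without sgKeap1-2 replicate 3. It was lowest without sgCtrl replicate 3, where NQO1, PTGR1 and EPHX1 passed, and these passed in all 9 fits. In bulk RNA, fewer cells with a transcript and less of it per cell cannot be told apart.

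**Figure D1:**
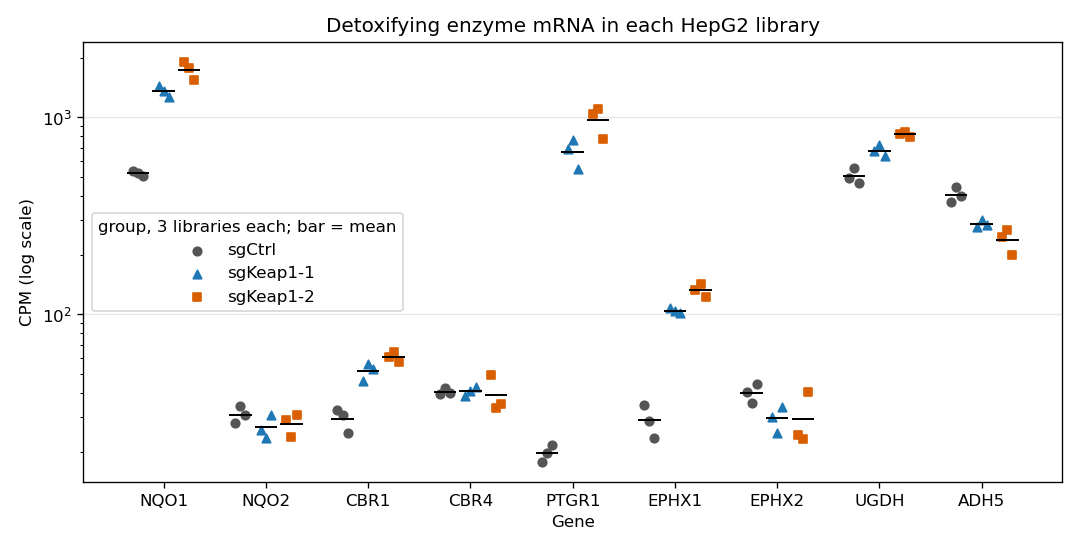
CPM on a log axis of the 9 enzymes in each of the 9 libraries (grey circles sgCtrl, blue triangles sgKeap1-1, orange squares sgKeap1-2; bars are group means). PTGR1 went from the lowest of the 9 in sgCtrl (19.7 CPM) to the level of UGDH in the KEAP1 guide libraries. For NQO2, and likewise for CBR4, the libraries of the groups overlapped.

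NQO1 (Entrez 1728; chr16:69740899-69760571, minus strand, GRCh37) encodes the flavoenzyme that reduces quinones to hydroquinones by a transfer of both electrons at once, which avoids the reactive semiquinone. Its level was 536, 521 and 505 CPM in sgCtrl libraries 1 to 3, 1442, 1360 and 1265 with sgKeap1-1, and 1900, 1769 and 1545 with sgKeap1-2. All 6 KEAP1 guide libraries lay far above the control libraries, and the lowest sgKeap1-2 library lay above the highest sgKeap1-1 library. Against sgCtrl, NQO1 rose on the log2 scale by 1.38 with sgKeap1-1 (SE 0.12, adjusted p = 8.25e-06, 2.60-fold) and by 1.74 with sgKeap1-2 (SE 0.12, adjusted p = 8.47e-07, 3.34-fold). NQO1 was already an abundant mRNA in sgCtrl, at the 97.8th percentile of the levels of all features tested, so its rise took it only to the 99.3rd and 99.5th percentiles. An annotated lncRNA on the other strand, not in the table used, shares 575 of the 1881 bases of the last NQO1 exon, and without a known strand setting its reads cannot be told apart from those of NQO1 there.

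NQO2 (Entrez 4835; chr6:2988221-3019989, plus strand) encodes the related quinone reductase that uses dihydronicotinamide riboside in place of NAD(P)H. It was at 30.9 ± 2.98 CPM in sgCtrl, 26.7 ± 3.70 with sgKeap1-1 and 27.9 ± 3.56 with sgKeap1-2. The libraries of all groups overlapped. NQO2 had log2 fold changes of -0.21 with sgKeap1-1 (95% interval -0.59 to 0.17, adjusted p = 0.679) and -0.15 with sgKeap1-2 (95% interval -0.53 to 0.23, adjusted p = 0.693). Both intervals exclude a rise of the size that NQO1 had. Within a library, there were 15.3 to 19.1 NQO1 reads for each NQO2 read in sgCtrl, 41.1 to 57.8 with sgKeap1-1 and 50.2 to 74.0 with sgKeap1-2.

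CBR1 (Entrez 873; chr21:37442239-37445464, plus strand) encodes the cytosolic carbonyl reductase that acts on quinones, prostaglandins and anthracycline drugs. The libraries read 32.6, 31.0 and 24.8 CPM in sgCtrl, 45.5, 55.8 and 52.6 with sgKeap1-1, and 60.6, 64.1 and 56.9 with sgKeap1-2. The groups did not overlap, and they stood in the order sgCtrl, sgKeap1-1, sgKeap1-2. CBR1 rose on the log2 scale by 0.80 with sgKeap1-1 (SE 0.16, adjusted p = 0.0077, 1.74-fold) and by 1.04 with sgKeap1-2 (SE 0.16, adjusted p = 0.000542, 2.06-fold). The sgCtrl replicate 3 library had the lowest level, and without it the change with sgKeap1-1 was 0.69 (adjusted p = 0.0566). SETD4 runs through the CBR1 locus on the other strand, but no annotated SETD4 exon shares a base with the last exon of CBR1, and SETD4 itself had log2 fold changes of -0.16 (adjusted p = 0.867) and 0.03 (adjusted p = 0.970).

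CBR4 (Entrez 84869; chr4:169784921-169931426, minus strand) encodes a quinone reductase that is also a subunit of the mitochondrial ketoacyl-ACP reductase of fatty acid synthesis. It was at 40.4 ± 1.56, 40.6 ± 2.19 and 39.1 ± 8.57 CPM in the groups in the same order. The log2 fold changes were 0.01 (95% interval -0.35 to 0.37, adjusted p = 0.992) and -0.05 (95% interval -0.42 to 0.31, adjusted p = 0.896). In sgKeap1-2 replicate 1 the level was 48.9 CPM, the highest of the 9 libraries, while the other sgKeap1-2 libraries, at 33.4 and 34.9, were the lowest. For CBR1, whose level in sgCtrl was below that of CBR4, the ratio to CBR4 reads within a library had a mean of 0.73 ± 0.10 in sgCtrl, 1.26 ± 0.10 with sgKeap1-1 and 1.60 ± 0.34 with sgKeap1-2.

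PTGR1 (Entrez 22949; chr9:114312002-114362173, minus strand) encodes an NADPH-dependent alkenal and enone reductase, which saturates the reactive double bond of 4-hydroxynonenal and also inactivates leukotriene B4 and oxidised prostaglandins. The libraries read 17.8, 19.7 and 21.8 CPM in sgCtrl, 694, 769 and 544 with sgKeap1-1, and 1038, 1102 and 777 with sgKeap1-2. Every KEAP1 guide library was above every control library by more than an order of magnitude, and replicate 3 was the lowest of its group with each guide. The rise came to a log2 fold change of 5.08 for sgKeap1-1 (SE 0.19, adjusted p = 2.36e-09, 33.8-fold) and of 5.62 for sgKeap1-2 (SE 0.20, adjusted p = 7.61e-10, 49.2-fold). By p-value it ranked 1 of the 11064 features in both contrasts. By log2 fold change it ranked 19 with sgKeap1-1 and 18 with sgKeap1-2.

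The rise moved PTGR1 from the 38.9th percentile of levels in sgCtrl to the 98.3rd with sgKeap1-1 and the 98.9th with sgKeap1-2. Its counts in sgCtrl were 58 to 78 reads a library, well above the floor of 3 counts, so the fold does not rest on a control level near 0. For each NQO1 read there were 0.033 to 0.043 PTGR1 reads in sgCtrl, 0.430 to 0.566 with sgKeap1-1 and 0.503 to 0.623 with sgKeap1-2. The gene overlaps ZNF483 on the other strand, whose annotated exons share no base with the last exon of PTGR1, and ZNF483 was not in the table used.

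EPHX1 (Entrez 2052; chr1:225997826-226033264, plus strand) encodes microsomal epoxide hydrolase, which turns epoxides of drugs and aromatic hydrocarbons into dihydrodiols. The libraries read 34.7, 28.6 and 23.4 CPM in sgCtrl, 107, 104 and 101 with sgKeap1-1, and 132, 142 and 123 with sgKeap1-2. The groups did not overlap. EPHX1 rose on the log2 scale by 1.84 with sgKeap1-1 (SE 0.15, adjusted p = 7.09e-06, 3.59-fold) and by 2.19 with sgKeap1-2 (SE 0.15, adjusted p = 8.56e-07, 4.57-fold). TMEM63A, on the other strand, shares 28 of the 418 bases of the last EPHX1 exon, and its own log2 fold changes were -0.17 (adjusted p = 0.826) and -0.30 (adjusted p = 0.494) at a mean of 16.0 CPM in sgCtrl.

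EPHX2 (Entrez 2053) encodes soluble epoxide hydrolase, which acts on epoxides of fatty acids. The libraries read 40.3, 35.4 and 44.3 CPM in sgCtrl, 30.2, 25.1 and 33.7 with sgKeap1-1, and 24.3, 23.2 and 40.5 with sgKeap1-2. With sgKeap1-1 all libraries lay below all control libraries, as for 21.7% of all features in that contrast in either direction, whereas with sgKeap1-2 the replicate 3 library lay among the control libraries. EPHX2 had log2 fold changes of -0.44 with sgKeap1-1 (95% interval -0.90 to 0.03, adjusted p = 0.378) and -0.45 with sgKeap1-2 (95% interval -0.91 to 0.02, adjusted p = 0.237). Without sgKeap1-2 replicate 3, the change with sgKeap1-2 was -0.76 (adjusted p = 0.0185). The ratio of EPHX1 to EPHX2 reads was 0.53 to 0.86 in sgCtrl, so that EPHX2 was the more abundant, and 3.00 to 4.14 with sgKeap1-1 and 3.03 to 6.15 with sgKeap1-2, so that EPHX1 was.

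**Figure D2:**
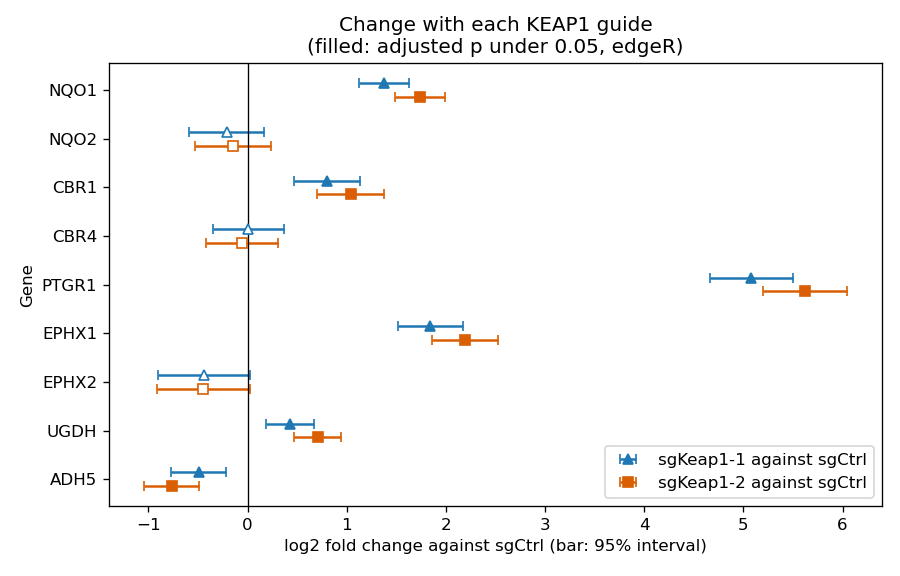
log2 fold change of each enzyme against sgCtrl (horizontal axis) with its 95% interval, for sgKeap1-1 (blue triangles) and sgKeap1-2 (orange squares). Filled symbols passed an adjusted p of 0.05. PTGR1 lies at 5.08 and 5.62, NQO1, EPHX1, CBR1 and UGDH between 0.43 and 2.19, and ADH5 is the filled pair below 0.

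UGDH (Entrez 7358; chr4:39500375-39529931, minus strand) encodes UDP-glucose dehydrogenase, which makes the UDP-glucuronate that glucuronosyltransferases attach to hydroquinones, phenols and many drugs. The libraries read 490, 553 and 465 CPM in sgCtrl, 675, 720 and 634 with sgKeap1-1, and 823, 838 and 798 with sgKeap1-2. The groups did not overlap, and the sgKeap1-2 libraries differed by an SD of only 20.3 CPM. The rise in UGDH was 0.43 on the log2 scale for sgKeap1-1 (SE 0.11, adjusted p = 0.0469, 1.35-fold) and 0.71 for sgKeap1-2 (SE 0.11, adjusted p = 0.000851, 1.63-fold). The first of these calls was near the threshold: it was lost in 7 of the 9 fits that leave out 1 library, with adjusted p up to 0.222, and kept without sgCtrl replicate 2 or sgKeap1-2 replicate 3.

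ADH5 (Entrez 128; chr4:99992129-100009952, minus strand) encodes the class III alcohol dehydrogenase that oxidises S-hydroxymethylglutathione, the adduct of formaldehyde, and reduces S-nitrosoglutathione. The libraries read 373, 445 and 397 CPM in sgCtrl, 277, 301 and 283 with sgKeap1-1, and 248, 267 and 200 with sgKeap1-2. All KEAP1 guide libraries lay below all control libraries. Groups that did not overlap were seen for 7 of 9 members with sgKeap1-1 (21.7% of all features) and for 6 of 9 with sgKeap1-2 (28% of all features). The fitted change of ADH5 was -0.49 on the log2 scale for sgKeap1-1 (SE 0.13, adjusted p = 0.0456), a level that fell by 29.0%, and -0.77 for sgKeap1-2 (SE 0.13, adjusted p = 0.00137), a level that fell by 41.2%. The call with sgKeap1-1 was lost in 7 of the 9 fits without 1 library (adjusted p up to 0.182) and kept without sgKeap1-2 replicate 2 or 3. It was also lost with scaling by library size only (adjusted p = 0.0512), with limma-voom (adjusted p = 0.0516) and among features with at least 10 counts in every library (adjusted p = 0.0552).

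Hepatocyte markers that passed the test mostly moved in the direction of ADH5. The summed level of the 8 markers was 27066 to 33647 CPM in sgCtrl, 15511 to 19454 with sgKeap1-1 and 12678 to 14162 with sgKeap1-2. With sgKeap1-1, 4 of the 8 fell (ALB, AFP, APOA1 and FGB), against 1.4% of all features, and TTR rose, against 2.8%. With sgKeap1-2, 5 of the 8 fell, against 4.85% of all features, and 1 rose, against 5.96%. HNF4A fell with sgKeap1-2 (log2 fold change -0.56, adjusted p = 0.0126) and was at -0.43 with sgKeap1-1 (adjusted p = 0.0945), with no library of either guide overlapping sgCtrl. By edgeR with a replicate block HNF4A also passed with sgKeap1-1 (adjusted p = 0.0121). Of the markers of other cell types, KRT19 of bile duct epithelium rose, with log2 fold changes of 1.28 and 1.48. No KRT19 library of either guide overlapped sgCtrl. The summed level of the 4 markers in the table overlapped between groups (1214 to 2085 CPM in sgCtrl, 1659 to 3006 with sgKeap1-1 and 1551 to 2073 with sgKeap1-2). LYZ was the largest part of this sum and varied widely within groups (SD 39.0% to 56.2% of the mean), so the sum does not show the change of KRT19. The part of these marker shifts in the result on ADH5 was not tested.

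Both NQO1 and UGDH stood at the top of the 9 members in sgCtrl, where their libraries overlapped, followed by ADH5 at 405 ± 36.9 CPM. The other 6 members lay an order of magnitude lower, between 19.7 and 40.4 CPM. Among these, CBR4 overlapped with EPHX2, and NQO2, CBR1 and EPHX1 overlapped with each other. PTGR1 was the lowest and overlapped with none of them.

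With either KEAP1 guide the order was led by NQO1 alone, followed by UGDH and PTGR1, which overlapped with each other, then by ADH5, EPHX1 and CBR1, whose libraries were apart from those of their neighbours. At the bottom came CBR4, EPHX2 and NQO2, of which EPHX2 and NQO2 overlapped with both guides and CBR4 and EPHX2 with sgKeap1-2. The 9 members together took 0.161% ± 0.006 of the counted reads in sgCtrl, 0.324% ± 0.017 with sgKeap1-1 and 0.407% ± 0.047 with sgKeap1-2. PTGR1 made up 1.22% of the reads of the 9 members in sgCtrl, 20.8% with sgKeap1-1 and 23.9% with sgKeap1-2. ADH5 made up 24.9%, 8.85% and 5.88%. The UGDH to ADH5 ratio within a library was 1.24 ± 0.07 in sgCtrl, 2.35 ± 0.10 with sgKeap1-1 and 3.49 ± 0.44 with sgKeap1-2.

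**Figure D3:**
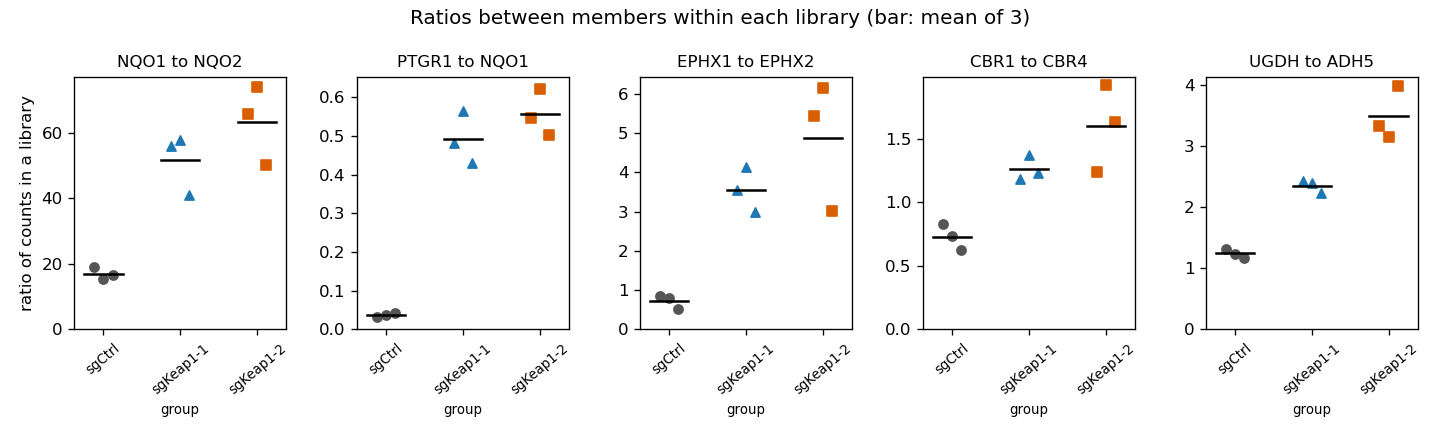
Ratio of the read counts of a pair of members within each library (vertical axes from 0, no unit), for 5 pairs, with the 3 libraries of each group and their mean. In each of the 5 pairs, all KEAP1 guide libraries lay above all sgCtrl libraries. The EPHX1 to EPHX2 ratio of sgKeap1-2 replicate 3, 3.03, stood below the other sgKeap1-2 libraries.

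The guides were also compared with each other. No member passed the threshold between sgKeap1-2 and sgKeap1-1 in edgeR's test, against 0.0181% of all features, and 4 of 9 had an unadjusted p under 0.05, against 5.08% of all features. DESeq2, limma-voom and edgeR with a replicate block called none either. In these 4 the level was higher with sgKeap1-2, with log2 differences of 0.54 for PTGR1 (95% interval 0.21 to 0.87, adjusted p = 0.803), 0.36 for NQO1 (0.11 to 0.61, adjusted p = 0.877), 0.35 for EPHX1 (0.05 to 0.65, adjusted p = 0.915) and 0.28 for UGDH (0.04 to 0.52, adjusted p = 0.915). The intervals leave room for a difference between guides, so the guides cannot be called equal. ADH5 was lower with sgKeap1-2 in all libraries (log2 difference -0.27, 95% interval -0.55 to 0.01). The libraries of the guides did not overlap for these 5 members and for CBR1, which makes 6 of 9, against 10.4% of all features.

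The antioxidant response element has a core that is commonly written TGACNNNGC. Another form with more fixed letters, TGANTCAGC, has first letters that include the AP-1 motif TGANTCA. Both were searched on both strands in the 1000 bases upstream of the canonical start of 8 members (GENCODE v44lift37 on GRCh37), leaving out EPHX2 and CBR3. The core was found upstream of 4 of the 8, against 32.5% of 19869 windows of protein-coding genes. The form with more fixed letters was found upstream of NQO1 alone, against 3.11% of all windows. Matches are printed 5′ to 3′ on the strand of the match with 10 bases on either side and the match in capitals, since they are the letters by which these members can be compared.
NQO1, 455 bases upstream, chr16:69760900-69760928, minus strand: gcagtcacagTGACTCAGCagaatctgag
PTGR1, 705 bases upstream, chr9:114362614-114362642, plus strand: catcaggcctTGACCTGGCttctgcaagg
CBR1, 159 bases upstream, chr21:37442153-37442181, minus strand: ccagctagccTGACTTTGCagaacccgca
CBR1, 522 bases upstream, chr21:37441790-37441818, minus strand: acaaagctacTGACTTAGCcagattttcc
CBR4, 253 bases upstream, chr4:169931641-169931669, minus strand: ccgactgataTGACCCAGCggggacagag

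The NQO1 match also holds the AP-1 motif. The match letters thus occurred upstream of NQO1, PTGR1 and CBR1, which rose, and of CBR4, which did not pass the test. They were not found in these windows of EPHX1 and UGDH, which rose, of ADH5, which fell, or of NQO2. These are matches of letters only, and no binding was measured here.

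Beyond the members, 110 other genes of the same chemistry were listed, of which 77 were in the table and 73 were tested. These lists were also made with earlier results of these data known, so their counts are no independent support. With sgKeap1-1, 11 rose, against 2.8% of all features, and 1 fell, against 1.4%. With sgKeap1-2, 12 rose, against 5.96% of all features, and 5 fell, against 4.85%. Their median log2 fold changes against sgCtrl were 0.05 for sgKeap1-1 and 0.04 for sgKeap1-2, beside -0.00062 and -0.014 over all features. Between the guides none passed by edgeR's test, by DESeq2 or by limma-voom, and 3 of 73 had an unadjusted p under 0.05 in edgeR's test, against 5.08% of all features.

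Of 19 carbonyl and quinone reductases tested, 2 passed with sgKeap1-1 and 1 with sgKeap1-2, against 4.2% and 10.8% of all features. The counts that rose in the lists below stand beside 2.8% and 5.96% of all features. VAT1, a relative of the quinone reductase CRYZ, rose by 0.69 and 0.98 on the log2 scale. PTGR2, a relative of PTGR1 named after its values were seen, was at 2 to 6 counts in sgCtrl. It met the count filter used before testing (filterByExpr) only through the KEAP1 guide libraries, so its calls are no independent support. PTGR2 passed with sgKeap1-1 (log2 fold change 1.93, adjusted p = 0.0469) but not with sgKeap1-2 (1.64, adjusted p = 0.0612). By edgeR with a replicate block it passed with sgKeap1-2 (adjusted p = 0.0353). With the block, 2 of these 19 rose and 1 fell with sgKeap1-1, where 977 of all features passed. With sgKeap1-2, 3 rose and 2 fell, where 1956 of all features passed. DHRS2, at 9460 CPM in sgCtrl, was lower with each guide by that test (adjusted p = 0.00557 and 7.16e-05). Without the block it did not pass (adjusted p = 0.592 and 0.238). Of 4 relatives of the epoxide hydrolases tested, none passed with either guide by edgeR without a replicate block, DESeq2 or limma-voom. At an unadjusted p under 0.05 in edgeR's test there were 0 with sgKeap1-1, against 15% of all features, and 2 with sgKeap1-2, against 23.3%. By edgeR with a replicate block, LTA4H was lower with sgKeap1-2 (adjusted p = 0.0140).

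Downstream of the aldehydes, 3 of 14 aldehyde dehydrogenases rose with each guide. ALDH1A1, which oxidises retinal and lipid aldehydes, rose from 146 ± 8.84 CPM to 387 ± 12.3 and 478 ± 103 (log2 fold changes 1.40 and 1.71). ALDH1L1, of folate metabolism, rose by 1.32 and 1.92. ALDH3A1, also among those 3, had fitted rises of 3.35 and 3.79 over only 2 to 8 counts in sgCtrl. It met the count filter used before testing (filterByExpr) only through the KEAP1 guide libraries, so its calls are no independent support. ALDH6A1, of valine breakdown, fell by 0.69 and 0.90, and ALDH5A1 fell by 0.41 with sgKeap1-2 (adjusted p = 0.0499) but did not pass with sgKeap1-1 (-0.32, adjusted p = 0.228).

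Beside ADH5, 3 other genes of alcohol and formaldehyde oxidation were tested. With sgKeap1-1 none passed in edgeR's test (2 at an unadjusted p under 0.05, against 15% of all features, 2 by DESeq2 and 0 by limma-voom). These 2 differed in direction, with log2 fold changes of -0.56 for ADH6 (adjusted p = 0.0651) and 0.69 for ADH4 (adjusted p = 0.0600). By edgeR with a replicate block these 2 passed (adjusted p = 0.00807 for ADH6 and 0.0280 for ADH4). With sgKeap1-2, ADH4 was at 0.39 (adjusted p = 0.247) and ADH6 fell by 0.53 on the log2 scale (adjusted p = 0.0461). The formaldehyde pathway enzyme ESD, which hydrolyses the S-formylglutathione that ADH5 makes and, like ADH4, was named after its values were seen, had log2 fold changes of -0.03 (adjusted p = 0.961) and -0.17 (adjusted p = 0.583).

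Of the 10 genes tested for UDP-glucuronate supply and glucuronosyltransferases, the chemistry that UGDH feeds, 2 rose with each guide. UGT2B7 rose from 39.0 ± 4.27 CPM to 67.3 ± 6.42 and 73.8 ± 11.7. UGT1A1, the bilirubin conjugating enzyme, had 0 to 2 counts in sgCtrl. It met the count filter used before testing (filterByExpr) only through the KEAP1 guide libraries, so its calls are no independent support. Set against a floor of 3 counts a library, its mean was at least 8.80-fold higher with sgKeap1-1. For the mean with sgKeap1-2 the bound was 10.9-fold, and single libraries can lie below these bounds. The UGT1A genes share their last exons, so the gene of origin of these reads is uncertain. UGP2, which makes the UDP-glucose that UGDH uses and was picked after its values were seen, was at 105 ± 9.22, 105 ± 18.1 and 94.7 ± 11.5 CPM (adjusted p = 0.998 and 0.647).

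Of 12 glutathione S-transferases tested, 3 rose with sgKeap1-1 and 4 with sgKeap1-2. GSTA1 rose by 1.94 and 2.23 and GSTA2 by 3.73 and 3.99, though these close paralogs may share reads, and MGST1 of the endoplasmic reticulum rose by 1.11 and 1.18. The fourth with sgKeap1-2 was GSTO1 (0.41, adjusted p = 0.0268), which did not pass with sgKeap1-1 (0.30, adjusted p = 0.191). Of 11 flavin and one-electron reductases, TXNRD1, thioredoxin reductase, rose by 2.13 and 2.34. With sgKeap1-2 BLVRB rose by 1.07, and POR, the electron donor of cytochrome P450, and CYB5A fell by 0.56 and 0.52. With sgKeap1-1 none of these 3 passed without a replicate block (0.68, adjusted p = 0.0600 for BLVRB, -0.39, adjusted p = 0.0945 for POR and -0.47, adjusted p = 0.0741 for CYB5A). By edgeR with the block all 3 passed (adjusted p = 0.0219, 0.0251 and 0.00913 in that order).

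**Figure D4:**
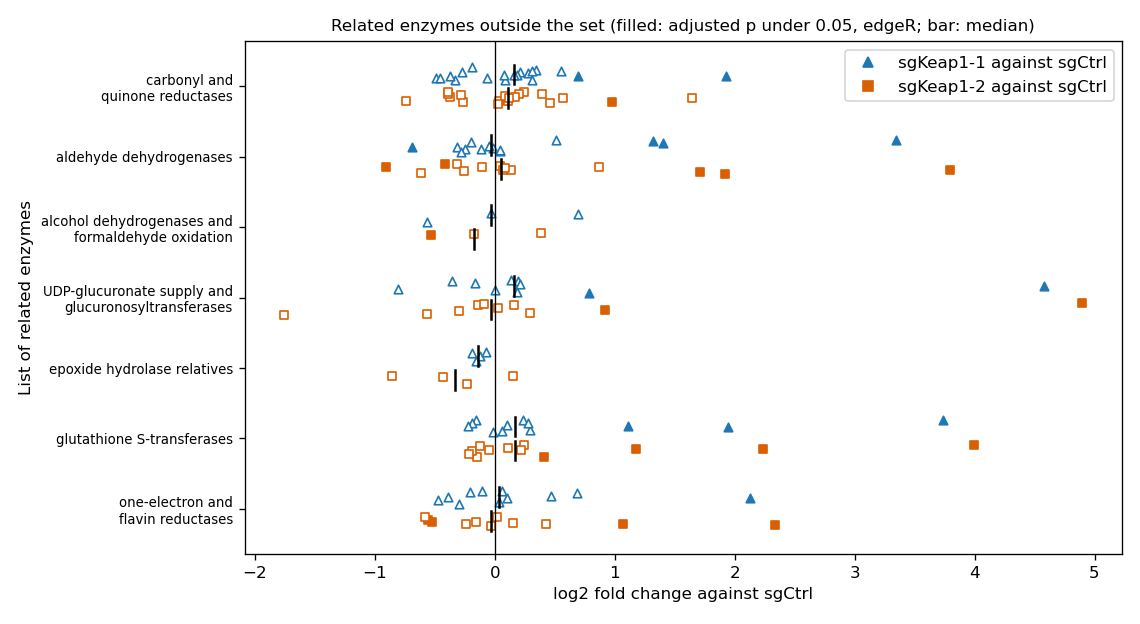
log2 fold changes against sgCtrl (horizontal axis) of the 73 related enzymes tested, by list, for sgKeap1-1 (blue triangles) and sgKeap1-2 (orange squares). Filled symbols passed an adjusted p of 0.05 and bars are list medians. List medians lie between -0.33 (epoxide hydrolase relatives with sgKeap1-2) and 0.17, with single genes far to the right such as UGT1A1, GSTA2 and ALDH3A1.

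For each member that passed with both guides, the features with the most similar profile were sought among 8645 features with a mean of at least 10 CPM, by the Euclidean distance of the log2 CPM centred over the 9 libraries. Nearest to NQO1 were GLA (distance 0.36), CPLX2 and ALDH1A1, the last of which is in the lists above. Near to CBR1 were KIZ (0.20) and VAT1. The profile of EPHX1 was most like those of ITPR3 (0.46), OSGIN1 and AKR1C1, a carbonyl reductase of the aldo-keto family whose reads may be shared with its close paralogs.

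PTGR1 was nearest to TUSC3 (0.48), TINAG and NOTCH3, whose fitted rises exceed that of PTGR1 and which are brought closer to it by the prior count of 2 in the log2 CPM. UGDH was nearest to ATP6V1E1 (0.19), FAM222B and NIBAN2, and ADH5 to FNIP2 (0.26), GGH and LRIG1. ATP6V1E1, a subunit of the lysosomal proton pump, had log2 fold changes of 0.36 and 0.68 beside the 0.43 and 0.71 of UGDH. These distances describe 9 libraries that share the 3 groups, with no test.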

How the data were processed

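The authors trimmed QuantSeq reads with cutadapt (1.16), aligned them with STAR (2.7.5b), counted them with featureCounts (1.6.3) and deposited whole-number read counts per feature, without normalization. Their methods name GRCh37 and the submitters' processing notes name hg38. The annotation, strand setting and low-count filter are not given in the sources used here, and every feature exceeded 0.5 CPM in at least 3 libraries. Of 12798 features, the 1052 without an Entrez number (1.34% of counted reads) were left out. The table had 0 columns of other samples.

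In R 4.3.3, features passing filterByExpr were TMM-scaled and tested with edgeR 4.0.16 (quasi-likelihood, robust, group only). SEs were derived from the F statistic (effect over root F). The test was checked on simulated counts, drawn independently for each library. That check therefore does not cover effects shared between libraries. The study's own test was limma-voom, here an alternative beside DESeq2 1.42.0, other scalings and filters, the fit of only the 2 groups compared, a log2 fold change of at least 0.5, and leaving out each library. Keeping features without an Entrez number was added after seeing the data.

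Members and lists were chosen with earlier results of these data known. Apart from the markers and genes named for calls with a replicate block, the genes named outside the members were chosen as follows. They are the 3 largest rises and 3 largest falls with sgKeap1-2 per list among those past the threshold, and the 3 nearest profiles. SETD4, TMEM63A, PTGR2, ADH4, ESD, UGP2 and GSTO1 were picked later. A nearest profile of CBR1 and a sequence match of PTGR1 are not reported here.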

Additional observations from a re-analysis of the deposited data

How the results depend on the processing

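The calls of NQO1, PTGR1 and EPHX1 with each guide, and of CBR1, UGDH and ADH5 with sgKeap1-2, held under all 10 alternative settings and all 9 fits without 1 library. With sgKeap1-1, leaving out 1 library gave 3 to 6 members past the threshold (lowest without sgCtrl replicate 3), and asking for a log2 fold change of at least 0.5 left 4. With sgKeap1-2, leaving out 1 library gave 6 to 7, and between the guides 0 to 0. Over all features, 278 to 688 passed with sgKeap1-1 when 1 library was left out (278, 287 and 285 without sgCtrl replicate 1, sgCtrl replicate 3 and sgKeap1-1 replicate 1), and 764 to 1291 with sgKeap1-2 (764 and 778 without sgCtrl replicates 1 and 3). UGDH with sgKeap1-1 was also lost among features with at least 10 counts in every library (adjusted p = 0.0583). The direction of members that had passed no test turned in single fits without 1 library: CBR4 ranged from -0.031 to 0.045 with sgKeap1-1, from -0.24 to 0.057 with sgKeap1-2 and from -0.25 to 0.051 between guides, EPHX2 from -0.32 to 0.15 and NQO2 from -0.017 to 0.18 between guides; the cause was not tested.

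Most libraries with the same number deviated together from their group means (mean r = 0.32 across genes). The r was 0.47 to 0.66 for replicate 2 and 0.28 to 0.30 for replicate 3. For replicate 1 it was 0.32 between sgCtrl and sgKeap1-1. With sgKeap1-2 replicate 1 it was -0.031 (sgCtrl) and 0.039 (sgKeap1-1). Centring each group on its mean forces a negative mean for different numbers (-0.16), so that value is no baseline. Names of libraries with the same number share a prefix whose meaning the labels do not give, so the numbers were not taken as pairs. With a replicate block, 977, 1956 and 26 features passed in the 3 contrasts in place of 465, 1196 and 2, and the members past the threshold stayed 6, 6 and 0. Among the related enzymes 18 passed in place of 12 with sgKeap1-1, now with BLVRB (adjusted p = 0.0219) and ADH4 (0.0280) higher and POR (0.0251), CYB5A (0.00913), ADH6 (0.00807) and DHRS2 (0.00557) lower, and 25 in place of 17 with sgKeap1-2, now with PTGR2 (0.0353), AIFM2 (0.0316) and ALDH3B1 (0.0157) higher and DHRS2 (7.16e-05), ALDH18A1 (0.0134), LTA4H (0.0140), RDH11 (0.0152) and SLC35D1 (0.0197) lower, by edgeR with the block. The hepatocyte marker HNF4A then also passed with sgKeap1-1 (0.0121). DESeq2 called 19 features between the guides and limma-voom none. Groups of 3 libraries at this depth limit what can be said of the lower members, such as EPHX2 at 79 to 167 counts.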
